A study of Mus musculus with 4 samples.

Results

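The mouse mitochondrial genome carries 37 genes, 13 for mRNAs, 2 for rRNAs and 22 for tRNAs, and their expression was examined in basal and luminal cells of the developing prostate. The members are all genes of the deposited table that GRCm38 places on the mitochondrial chromosome, 37 of 49671. No measured value enters this rule, but the set was chosen with earlier results of these data known. Cells came from the ductal tips of the ventral lobe of male CD-1 mice at postnatal day 10 to 13, with no treatment and no transgene named. EpCAM-high cells were sorted by fluorescence-activated cell sorting (FACS) as CD49f-high, the multipotent basal cells, or CD49f-low, the luminal cells that derive from them, after cells positive for CD45, CD31 or CD140a were removed. Bulk RNA-seq of total RNA gave 2 libraries per cell type, labelled basal 1 and 3 and luminal 3 and 2. The lobes of several mice were used, and the sources do not say whether the libraries of a group came from separate animals or sorts, so p-values measure only the spread between these libraries.

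Mitochondrial DNA is transcribed from both strands as long polycistronic RNAs, which are cut mostly at the tRNAs that lie between the other genes. The mRNAs encode core subunits of respiratory complexes I, III, IV and V, while the rRNAs and tRNAs serve the mitochondrial ribosome that translates them. All proteins that transcribe, cut, modify and translate these RNAs are encoded in the nucleus. In the annotation used here, 28 of the genes are read from the plus strand, and the other 9, mt-Nd6 and 8 tRNA genes, from the minus strand. The genes are packed so tightly that 9 neighbouring pairs overlap, by 1 to 43 bases.

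Sequencing depth differed with cell type. The authors scaled each library to the same total, and the value of 1 read, recovered from the spacing of low values, was 6.26 and 6.50 in basal 1 and 3 and 19.4 and 31.2 in luminal 3 and 2, which corresponds to 3194233, 3079298, 1036682 and 643266 reads on genes. Depth and cell type therefore cannot be told apart. The sorted cells carried the markers of their labels: all 7 basal markers, such as the keratin Krt5 (18481 and 15824 against 77 and 93), were higher in both basal libraries, and 5 of 7 luminal markers, such as Krt8 (3012 and 4287 against 13302 and 8320), in both luminal libraries. Summed values of 12 stromal and smooth muscle markers ranged from 135481 to 264318 in basal and from 83037 to 263510 in luminal libraries, and those of 5 endothelial markers from 1241 to 1491 and from 581 to 1278. The 10 dissociation stress genes summed to 186089 to 347295 and 128896 to 199502. These 3 sums overlapped between the cell types. A sum over 5 red blood cell genes did not overlap, at 32 to 50 in basal and 155 to 280 in luminal libraries. Given the values of 1 read above, this sum rests on few reads in every library. Only 1 of the 5 genes passed the filter on low values, and Hba-a2 and Hbb-bt were at 0 throughout. The part of this sum in the results was not tested.

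Mitochondrial transcripts took a larger share of the luminal libraries. The 37 genes held 2.96% (95% Wilson interval 2.94 to 2.98) and 4.41% (4.39 to 4.43) of the summed values in basal 1 and 3, and 8.64% (8.58 to 8.69) and 6.32% (6.26 to 6.38) in luminal 3 and 2. The group means were 3.69% ± 1.03 and 7.48% ± 1.64 (SD, n = 2), a ratio of 2.03, and the groups did not overlap. Both groups were uneven inside, since basal 3 lay above basal 1 and luminal 3 above luminal 2 by more than their counting intervals. With 2 against 2 libraries an exact two-sided permutation test cannot go below 0.333. The intervals cover counting error only, and molecules duplicated by PCR may widen the true error. In bulk RNA, more mitochondrial RNA per cell and less of all other RNA per cell cannot be told apart, and neither can fewer cells of a type and less RNA per cell.

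By type, the mRNA genes held 1.86% and 2.68% of the basal libraries against 4.37% and 3.74% of the luminal ones. The rRNA genes held 1.07% and 1.68% against 4.14% and 2.44%. tRNA genes were a small fraction, 0.0336% and 0.0555% against 0.128% and 0.135%. None of the types overlapped between the cell types, and the luminal-to-basal ratio of mean shares was 1.79 for mRNA, 2.40 for rRNA and 2.96 for tRNA genes. A few other noncoding genes also held more of the luminal libraries. Nuclear rRNA genes, nearly all of it CT010467.1, held 5.16% and 5.18% of the basal and 10.2% and 8.17% of the luminal libraries. lincRNA genes held 9.70% and 9.69% against 16.9% and 14.6%, but without Gm42418, AY036118 and Gm26917, the 3 highest, 2.40% and 2.28% against 1.92% and 2.61%, which overlapped. miRNA genes held 0.528% and 0.539% against 1.11% and 1.05%, and 0.321% and 0.329% against 0.465% and 0.467% without the highest, Gm23935. Nuclear protein-coding genes held less of the luminal libraries, 57.3% and 64.2% against 76.0% and 74.7% in basal 1 and 3. The part of these shifts in the mitochondrial share was not tested. The types are those of the annotation, and whether nuclear rRNA reads were counted on these lincRNA and miRNA genes was not tested either. Set against nuclear rRNA genes, the mitochondrial total gave ratios of 0.573 and 0.852 in basal 1 and 3 and 0.847 and 0.774 in luminal 3 and 2, which overlapped. Set against nuclear protein-coding genes, it came to 3.89% and 5.90% against 15.1% and 9.83%.

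**Figure D1:**
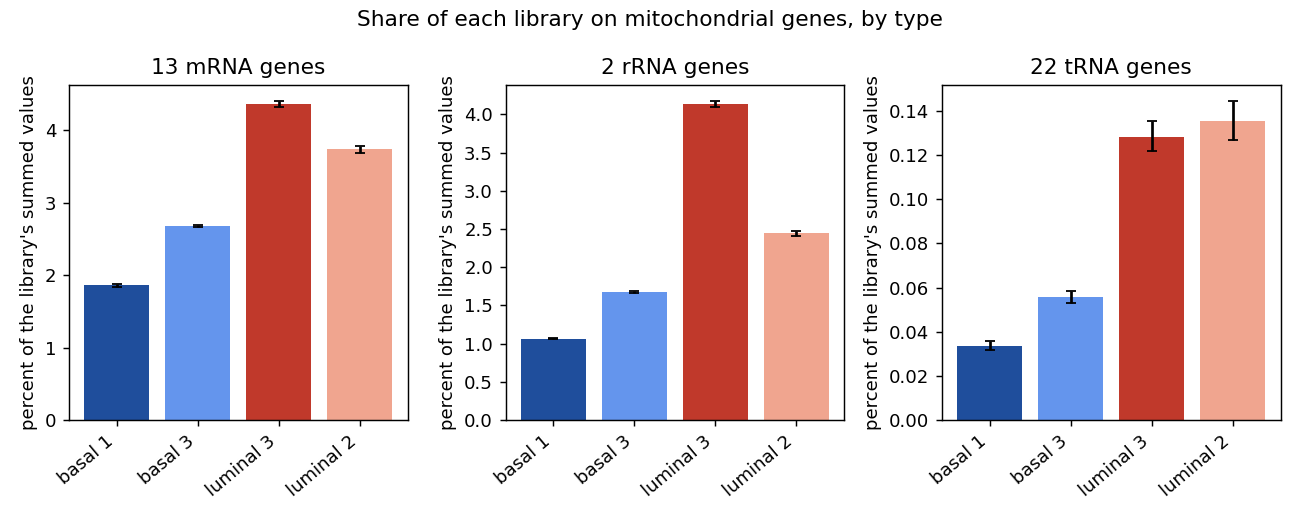
Bars give the percent of each library's summed values that fell on mitochondrial mRNA, rRNA and tRNA genes, each panel with its own axis from 0, and lines the 95% Wilson intervals on recovered reads. Both luminal libraries stood above both basal libraries in every panel, with tRNA genes at 0.128% and 0.135% against 0.0336% and 0.0555%.

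All 37 genes passed the filter on low values, 33 of them in both cell types. A luminal-to-basal fold of 2 or more, on the ratio of group averages, was met by 27 genes, against 18.3% of the 18737 genes tested. By type it was met by 6 of 13 mRNA, 2 of 2 rRNA and 19 of 22 tRNA genes. All 6 of these mRNA genes lie inside a stretch with a nuclear copy, described below. Of the other 7 mRNA genes, 0 met it. A fold of 4 or more was met by 8 genes, against 7.77% of all genes, and by 4 of the 33 that passed in both cell types, mt-Ty, mt-Ts1, mt-Td and mt-Tg. mt-Tf, mt-Tv, mt-Tk and mt-Tr passed through their luminal values alone and so could only lie on the luminal side, and of the 33 that passed in both cell types 23 met the fold of 2. No member had a ratio of 0.5 or below, where 16.3% of all genes lay. Both luminal libraries exceeded both basal libraries for 33 members (23.6% of all genes), among them 29 of the 33 that passed in both cell types, and no member showed the opposite order (27.3% of all genes). The median log2 fold change was 0.92 for mRNA, 1.25 for rRNA and 1.60 for tRNA genes (1.59 for the 19 with more than 3 reads in some library), beside -0.10 for all genes tested. 36 of the members lay above 0, as did 45.9% of all genes.

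In the main test, limma, a moderated linear model on log2 values, called 0 members at an adjusted p of 0.05. Over all genes, 0.694% passed that threshold. The lowest adjusted p was 0.0625, for mt-Ty. Without adjustment, 21 members had a limma p under 0.05 with luminal cells higher, against 7.82% of all genes. The count was 19 without mt-Tk and mt-Tr, which passed the filter through luminal libraries alone. With both cell types required to pass the filter, limma called 10 of 33 members at an adjusted p of 0.05, against 678 of 14953 genes. It called 5 of 37 after quantile normalization, among them mt-Tk, and 3 of 37 with a pseudocount of 10, against 875 and 531 of 18737 genes. edgeR's quasi-likelihood test on the recovered reads called 12 members with luminal cells higher (2.37% of all genes) and DESeq2 called 11 (2.04% of all genes). The 12 edgeR calls were mt-Co2, mt-Atp8, mt-Atp6, mt-Co3 and the tRNA genes mt-Ti, mt-Tw, mt-Ta, mt-Tn, mt-Ty, mt-Ts1, mt-Te and mt-Tp. None of the rRNA genes and none of the 7 most abundant mRNA genes was among them. All 4 mRNA genes called lie inside the copied stretch.

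**Figure D2:**
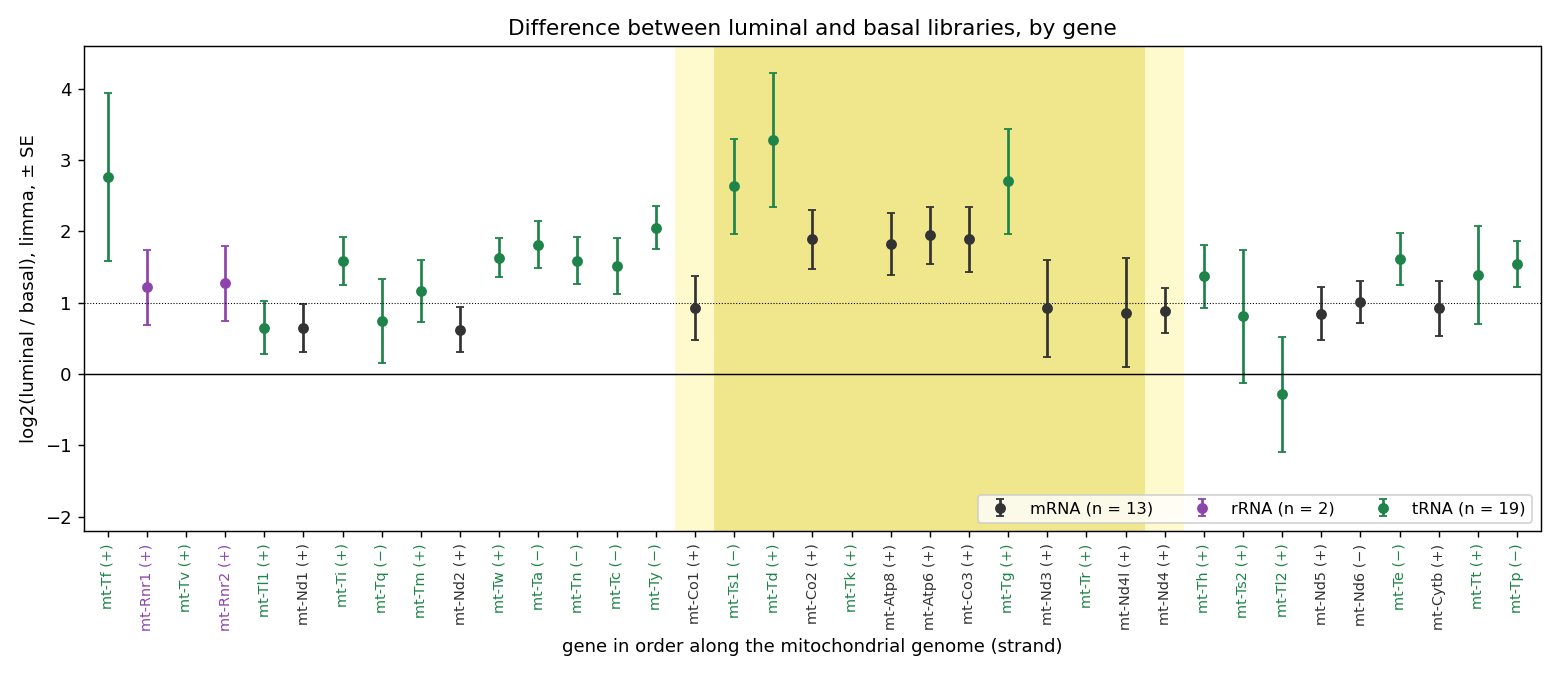
Points give the limma log2 fold change of luminal over basal libraries with its standard error for each gene in order along the genome, leaving out mt-Tv, mt-Tk and mt-Tr, which had at most 3 reads in every library. The dotted line marks a fold of 2, dark shading the genes wholly inside the stretch spanned by pseudogenes on chromosome 1 and pale shading the 2 partly inside, and all points except mt-Tl2 lie above 0 (mt-Tl2 at 0.018 after rescaling to nuclear protein-coding genes).

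Per kb of full gene length, the rRNA genes were the most abundant members. mt-Co1, which lies partly in a stretch with a nuclear copy, exceeded both of them in 3 of 4 libraries per 1000 windows without an exact copy (118664 and 175086 against 297869 and 252012, beside 89858 and 151937 against 376886 and 196150 for mt-Rnr1 and 91929 and 138338 against 342763 and 216773 for mt-Rnr2). mt-Rnr1 (ENSMUSG00000064337, chrM:70-1024), the 12S rRNA of the small mitochondrial ribosomal subunit, had values of 76918 and 130058 in basal 1 and 3 and 322614 and 167904 in luminal 3 and 2. mt-Rnr2 (ENSMUSG00000064339, chrM:1094-2675), the 16S rRNA of the large subunit, had 136331 and 205155 in basal 1 and 3 and 508318 and 321474 in luminal 3 and 2. Both luminal libraries were above both basal libraries for each gene, but luminal 3 stood well above luminal 2 and basal 3 above basal 1. The log2 fold changes were 1.22 ± 0.53 and 1.27 ± 0.53 (SE), with limma adjusted p of 0.300 and 0.280. Per kb of gene, the values of mt-Rnr1 and mt-Rnr2 averaged 108364 ± 39346 and 107929 ± 30762 in basal and 256816 ± 114551 and 262260 ± 83514 in luminal cells (SD, n = 2), so the 2 rRNAs did not differ beyond their spread. The ratio of mt-Rnr2 to mt-Rnr1 values was 1.77 and 1.58 in basal 1 and 3 and 1.58 and 1.91 in luminal 3 and 2.

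Complex I, NADH dehydrogenase, takes 7 of its subunits from the mitochondrial genome, and 5 of these had abundant transcripts that were higher in both luminal libraries. mt-Nd1 (ENSMUSG00000064341, chrM:2751-3707) had values of 50446 and 67439 in basal 1 and 3 and 97528 and 85136 in luminal 3 and 2. mt-Nd2 (ENSMUSG00000064345, chrM:3914-4951) had 37288 and 51667 against 69027 and 66034, in the same order of libraries. These 2 genes, the first mRNA genes behind the rRNAs, gave the smallest differences among the mRNAs, with log2 fold changes of 0.64 ± 0.33 and 0.62 ± 0.31 (SE). mt-Nd4 (ENSMUSG00000064363, chrM:10167-11544) had 29885 and 42034 against 71060 and 60674, and mt-Nd5 (ENSMUSG00000064367, chrM:11742-13565) had 61105 and 86731 against 142080 and 120631. mt-Nd6 (ENSMUSG00000064368, chrM:13552-14070), the one protein gene on the minus strand, had 21500 and 30049 against 53692 and 48801. In all 5 genes the basal and luminal values did not overlap. Their log2 fold changes ran up to 1.01 ± 0.29 in mt-Nd6, whose limma adjusted p of 0.155 was the lowest of the 5. mt-Nd3 and mt-Nd4l, which lie inside a stretch with a nuclear copy, had far lower values and are described with that stretch.

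mt-Cytb (ENSMUSG00000064370, chrM:14145-15288), the cytochrome b of complex III, had values of 50953 and 79066 in basal 1 and 3 and 135768 and 105984 in luminal 3 and 2. Its groups did not overlap, and the log2 fold change was 0.92 ± 0.39 (limma adjusted p = 0.286). mt-Co1 (ENSMUSG00000064351, chrM:5328-6872), the catalytic subunit of complex IV (cytochrome c oxidase), was the most abundant mRNA in all libraries, with 118664 and 175086 against 297869 and 252012. Both luminal libraries were again above both basal ones, with a log2 fold change of 0.93 ± 0.45 (limma adjusted p = 0.349). After quantile normalization, which gives genes of equal rank equal values, it was 0.00. The remaining mRNA genes of complexes IV and V, mt-Co2, mt-Co3, mt-Atp8 and mt-Atp6, lie inside the copied stretch.

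Ranked by mean value per kb in basal cells, mt-Co1 came first among the mRNAs with 95065 ± 25823, followed by mt-Nd1 with 61591 ± 12556, mt-Cytb with 56826 ± 17377, mt-Nd6 with 49662 ± 11648, mt-Nd2 with 42849 ± 9795, mt-Nd5 with 40525 ± 9934 and mt-Nd4 with 26095 ± 6234 (SD, n = 2). Neighbours in this order from mt-Nd1 to mt-Nd5 differed by less than their spread between libraries. The order was nevertheless the same within basal 1 and within basal 3. In luminal cells mt-Co1 again led with 177955 ± 20988 and mt-Nd4 was again last of these 7 with 47799 ± 5329, while mt-Cytb (105661 ± 18410), mt-Nd6 (98741 ± 6664) and mt-Nd1 (95436 ± 9156) differed by less than the SD of mt-Cytb. Divided by the part without a copy alone, which takes reads of the copied part as not counted, the place of mt-Nd4 was another. Per 1000 windows of 100 bases without an exact annotated copy, of which mt-Nd4 has 39.2%, its values were 59532 and 83733 against 141554 and 120865, second among these 7 to those of mt-Co1 (118664 and 175086 against 297869 and 252012) in each library, where mt-Nd1 had 58795 and 78600 against 113669 and 99226.

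**Figure D3:**
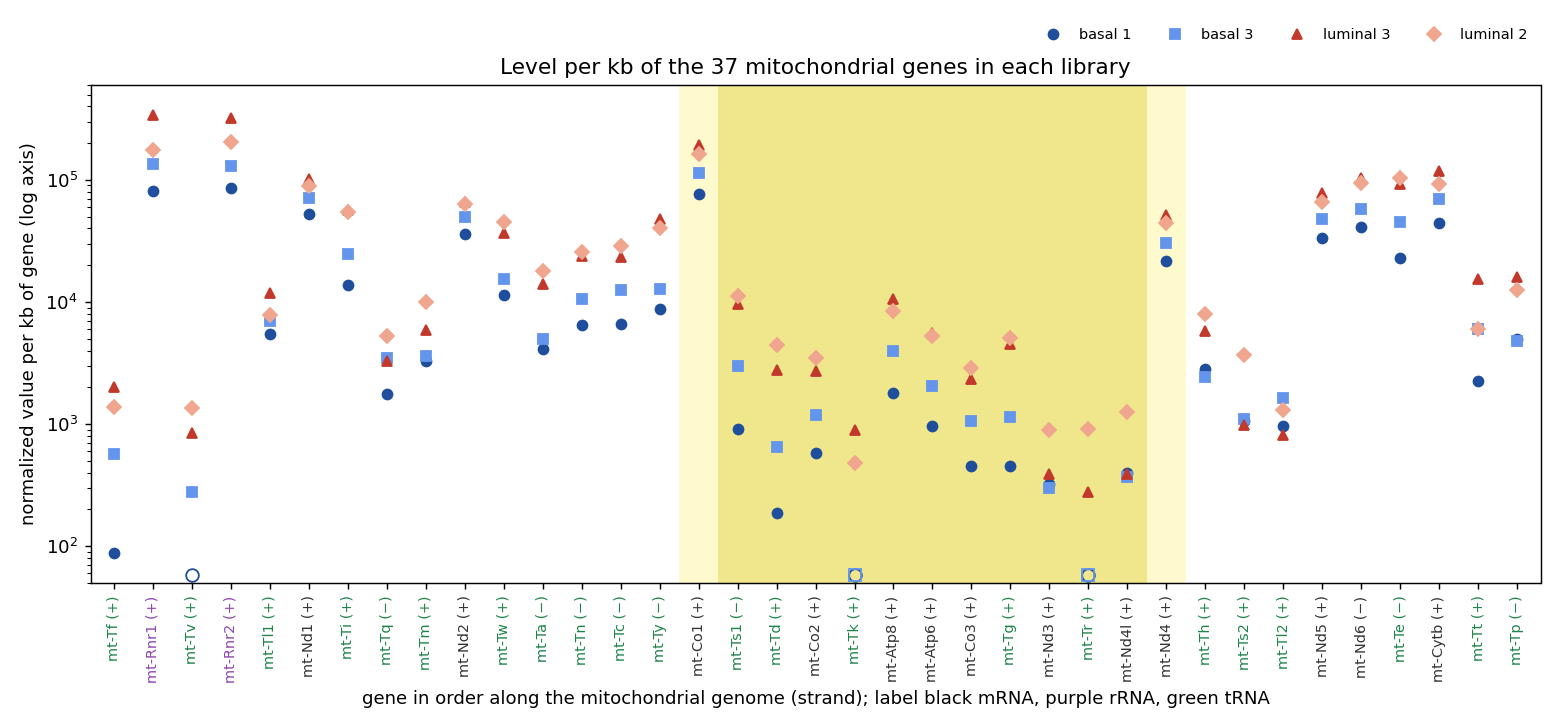
Normalized value per kb of gene on a log axis for the 37 genes in order along the mitochondrial genome, with 1 point per library and open symbols at the lower edge for values of 0. Dark shading marks the 11 genes inside the stretch spanned by pseudogenes on chromosome 1, where per-kb values of mRNA genes fall from 76805 at mt-Co1 in basal 1 to 577 at mt-Co2, and pale shading the 2 genes partly inside.

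The 6 mRNA genes with low values share 1 stretch of the genome. Bases 6390 to 11042 of the mitochondrial chromosome, 4653 bases, are spanned by the matches of 7 annotated pseudogenes, which cover 4136 of them and stand side by side in the same order on the minus strand of chromosome 1 (chr1:24611535-24616197, GRCm38), with 99.7% to 100% identity over each aligned transcript. Wholly inside the stretch lie 11 members, the mRNA genes mt-Co2, mt-Atp8, mt-Atp6, mt-Co3, mt-Nd3 and mt-Nd4l and the tRNA genes mt-Ts1, mt-Td, mt-Tk, mt-Tg and mt-Tr. The 5 tRNA genes and mt-Atp8 lie wholly or mostly between the matches, where the sequence of chromosome 1 was not read here. mt-Co1 and mt-Nd4 lie partly inside, and the other 24 members outside. The first 60 coding bases of mt-Co2 are shown with those of its copy on chromosome 1 and of a more distant copy on chromosome 2 (GENCODE transcripts of GRCm38, 5′ to 3′), since they show how little sequence sets a read from the gene and its near copy apart. Capitals mark bases that differ from mt-Co2, 0 in Gm28661 and 2 in Gm13341.
mt-Co2 (chrM:7013-7072, plus strand): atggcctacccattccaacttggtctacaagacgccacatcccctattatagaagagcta
Gm28661 (chr1:24615506-24615565, minus strand): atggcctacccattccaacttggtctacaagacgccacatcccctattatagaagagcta
Gm13341 (chr2:22587903-22587962, minus strand): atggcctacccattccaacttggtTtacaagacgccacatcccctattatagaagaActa

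mt-Co2 (ENSMUSG00000064354, chrM:7013-7696), which carries the copper site that takes electrons from cytochrome c, had values of 395 and 812 in basal 1 and 3 and 1859 and 2368 in luminal 3 and 2. mt-Co3 (ENSMUSG00000064358, chrM:8607-9390), the third core subunit of complex IV, had 357 and 831 against 1820 and 2244. mt-Atp6 (ENSMUSG00000064357, chrM:7927-8607), the subunit of complex V that forms its proton path, had 658 and 1403 against 3814 and 3584. All 3 were higher in both luminal libraries, with log2 fold changes of 1.89 ± 0.41, 1.89 ± 0.45 and 1.94 ± 0.40 and limma adjusted p of 0.078, 0.0949 and 0.0705. The fold change of mt-Co3 was 1.28 without basal 1 and 2.50 without basal 3. mt-Nd3 (ENSMUSG00000064360, chrM:9459-9806) had 113 and 104 against 136 and 312 and mt-Nd4l (ENSMUSG00000065947, chrM:9877-10173) had 119 and 110 against 116 and 374. These values came from 6 to 19 reads, and mt-Nd4l is the only mRNA gene whose groups overlapped.

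mt-Atp8 (ENSMUSG00000064356, chrM:7766-7969), a small complex V subunit, shares its last 43 bases with the start of mt-Atp6, and reads on them can belong to either gene. The overlap is shown in capitals at the end of mt-Atp8 and at the start of mt-Atp6, where the mt-Atp6 start codon opens it.
mt-Atp8, last bases (chrM:7897-7969): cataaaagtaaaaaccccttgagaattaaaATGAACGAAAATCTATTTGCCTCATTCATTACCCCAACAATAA
mt-Atp6, first bases (chrM:7927-7999): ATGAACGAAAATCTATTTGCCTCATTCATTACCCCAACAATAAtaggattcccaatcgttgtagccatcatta
mt-Atp8 had values of 369 and 805 against 2169 and 1714 and a log2 fold change of 1.82 ± 0.44 (limma adjusted p = 0.0939). It had no annotated pseudogene of its own in the stretch, but per kb its values, 1809 and 3946 against 10632 and 8402, were also far below those of mt-Co1.

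Inside the stretch, the 6 mRNA genes had per-kb values from 299 (mt-Nd3 in basal 3) to 10632 (mt-Atp8 in luminal 3). The 7 mRNA genes outside it or partly inside ranged from 21687 (mt-Nd4 in basal 1) to 192795 (mt-Co1 in luminal 3), so the lowest of them exceeded the highest inside the stretch. Of all windows of 100 bases in mt-Co2, mt-Atp6, mt-Co3, mt-Nd3 and mt-Nd4l, 0.146% to 2.41% lacked an exact copy in an annotated nuclear transcript, whereas 100% of those of mt-Nd1, mt-Nd5, mt-Nd6 and mt-Cytb lacked one, and so did 100% of those of mt-Atp8, which had low values too. How the counting treated reads that match 2 places is not stated in the sources used here, and its part in the low values was not tested. The sum of the 6 genes came to 0.541% and 0.758% of all mRNA values in basal 1 and 3 and 1.13% and 1.41% in luminal 3 and 2. Their median log2 fold change was 1.85, and that of the other 7 mRNA genes 0.89, near which mt-Nd3 and mt-Nd4l also lay with 0.92 ± 0.68 and 0.86 ± 0.76. These 2 rested on single libraries, since mt-Nd3 gave 1.52 without luminal 3 and 0.32 without luminal 2, and mt-Nd4l 1.70 and 0.02.

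The summed values of the nuclear copies were higher in luminal libraries too. Summed over the 7 pseudogenes of the chromosome 1 stretch, values were 2211 and 4300 in basal 1 and 3 and 10377 and 12496 in luminal 3 and 2. All 7 were higher in both luminal libraries, against 23.6% of all genes, with a median log2 fold change of 1.91 and limma adjusted p of 0.0637 at the lowest. Gm10925, the copy of mt-Atp6, had 601 and 1104 against 3369 and 3272, close to the values of mt-Atp6 itself, and Gm28437, the copy of mt-Co3, 307 and 637 against 1626 and 2555. For mt-Nd3 and mt-Nd4l the copies had higher values than the genes in every library, Gm28438 with 395 and 890 against 1026 and 1247 and Gm10222 with 225 and 461 against 697 and 1060, as did Gm28437 in luminal 2. In contrast, Gm29216, the copy of the end of mt-Co1, had 163 and 305 against 1452 and 1433, far below mt-Co1. 8 other annotated copies with 90.7% to 97.6% identity, on chromosomes 2, 4, 11 and 13, summed to 526 and 955 against 3176 and 4113, but 1 of them, Gm11512, had 6 and 0 against 0 and 62. Since a read from one of these genes may be counted on its copy, the values of the 11 members inside the stretch and of their copies are uncertain one by one. Adding each copy to its mitochondrial gene left the median log2 fold change of the mRNA genes at 0.93.

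**Figure D4:**
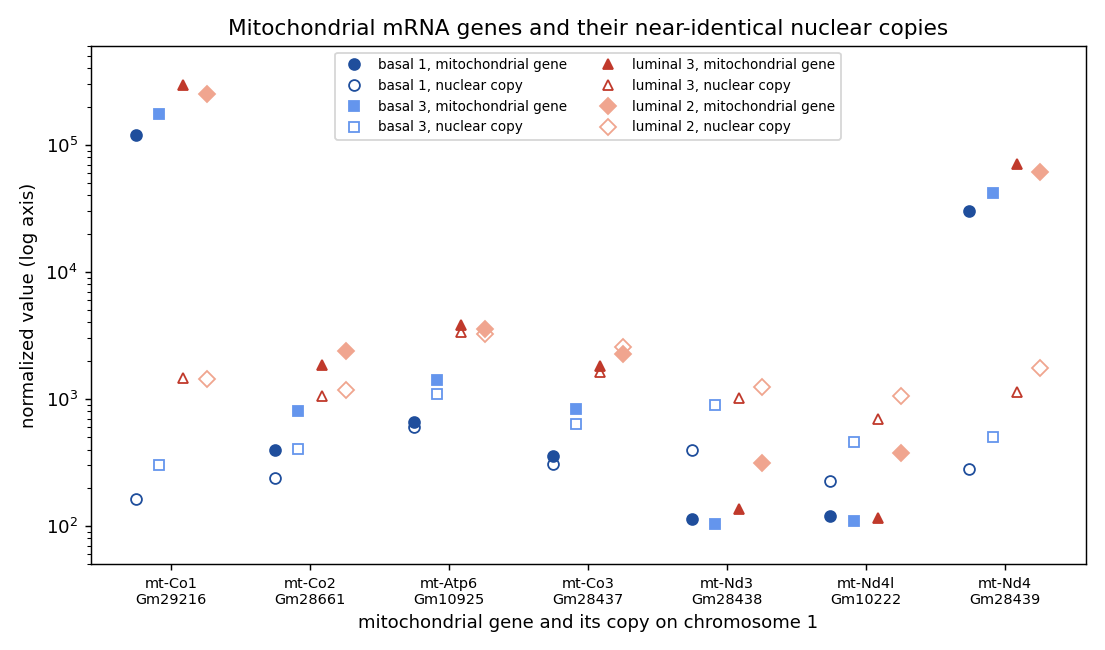
Normalized values on a log axis for the 7 mitochondrial mRNA genes with a near-identical copy on chromosome 1 (filled symbols) and for the copy (open symbols), with 1 symbol per library. In mt-Atp6 and mt-Co3 the gene and its copy had similar values in every library, 658 and 601 for mt-Atp6 and Gm10925 in basal 1. mt-Co1 and mt-Nd4 stood far above theirs, but their copies match only 483 of 1545 and 876 of 1378 bases.

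Among the tRNA genes, 14 had at least 10 reads in every library, and 13 of these were higher in each luminal library than in either basal library, against 23.6% of all genes. mt-Tt is among the 13 by 405 in luminal 2 against 403 in basal 3. The log2 fold changes of the 14 genes had a median of 1.56. The first 4 genes shown, with the anticodon in capitals, held the highest mean tRNA values per kb in both cell types, and they are followed by mt-Tl1, which had a small difference, and by mt-Tk and mt-Tr, which had almost no reads (DNA letters, GENCODE transcripts of GRCm38, 5′ to 3′).
mt-Te (tRNA for glutamate, chrM:14071-14139, minus strand): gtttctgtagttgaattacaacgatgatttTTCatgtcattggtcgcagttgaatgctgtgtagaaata
mt-Ti (tRNA for isoleucine, chrM:3706-3774, plus strand): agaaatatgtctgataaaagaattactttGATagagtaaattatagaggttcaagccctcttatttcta
mt-Ty (tRNA for tyrosine, chrM:5260-5326, minus strand): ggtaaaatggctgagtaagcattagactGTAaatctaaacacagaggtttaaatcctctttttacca
mt-Tw (tRNA for tryptophan, chrM:4950-5016, plus strand): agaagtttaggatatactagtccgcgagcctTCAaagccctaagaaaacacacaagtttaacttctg
mt-Tl1 (tRNA for leucine, chrM:2676-2750, plus strand): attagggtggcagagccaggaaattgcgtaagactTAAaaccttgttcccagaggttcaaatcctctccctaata
mt-Tk (tRNA for lysine, chrM:7700-7764, plus strand): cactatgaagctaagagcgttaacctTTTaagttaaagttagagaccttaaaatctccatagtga
mt-Tr (tRNA for arginine, chrM:9808-9875, plus strand): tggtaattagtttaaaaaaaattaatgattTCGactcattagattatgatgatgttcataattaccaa

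mt-Te, which lies directly beside mt-Nd6 on the minus strand, had the highest tRNA values, 1591 and 3111 in basal 1 and 3 and 6409 and 7199 in luminal 3 and 2. Per kb it reached 23058 and 45087 against 92884 and 104333, in luminal cells about as high as mt-Nd6 (41426 and 57898 against 103453 and 94029). The ratio of mt-Te to mt-Nd6 per kb was 0.557 and 0.779 in basal and 0.898 and 1.11 in luminal libraries. mt-Ti, directly behind mt-Nd1, had 946 and 1721 against 3911 and 3771, and its log2 fold change of 1.59 ± 0.34 compared with 0.64 ± 0.33 for mt-Nd1 (SE). mt-Tl1 lies between mt-Rnr2 and mt-Nd1 and had 407 and 526 against 891 and 592, a log2 fold change of 0.65 ± 0.37. mt-Tq, which overlaps mt-Ti on the other strand, had 125 and 247 against 232 and 374, and its groups overlapped. mt-Tm, for methionine, had 225 and 247 against 407 and 686.

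A run of 5 tRNA genes between mt-Nd2 and mt-Co1, around the origin from which the light strand is replicated, was higher in luminal cells throughout. mt-Tw, for tryptophan, had 758 and 1026 in basal 1 and 3 and 2478 and 3023 in luminal 3 and 2. mt-Ta (alanine) had 282 and 344 against 968 and 1247, mt-Tn (asparagine) 457 and 747 against 1685 and 1839 and mt-Tc (cysteine) 432 and 825 against 1530 and 1901. mt-Ty (tyrosine) had 582 and 857 against 3214 and 2680. In each of the 5 the groups stood apart, with log2 fold changes from 1.51 (mt-Tc) to 2.05 (mt-Ty) and limma adjusted p from 0.0625 to 0.114. The mRNA genes on either side, mt-Nd2 and mt-Co1, had log2 fold changes of 0.62 ± 0.31 and 0.93 ± 0.45 (SE).

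Further along the genome, mt-Th, for histidine, had 188 and 162 against 387 and 530, and mt-Tp, for proline, 332 and 318 against 1065 and 841. mt-Tt, for threonine, had 150 and 403 against 1026 and 405, so that luminal 2 nearly met basal 3, and its log2 fold change of 1.39 ± 0.69 ran from 0.68 without basal 1 to 2.10 without basal 3. mt-Ts1, which reads the UCN serine codons and lies inside the stretch spanned by the pseudogenes, had 63 and 208 against 658 and 779 and a log2 fold change of 2.63 ± 0.67, which was 1.78 without basal 1 and 3.49 without basal 3. The remaining 8 tRNA genes had fewer than 10 reads in at least 1 library. mt-Td (aspartate) had 13 and 45 against 194 and 312 and mt-Tg (glycine) 31 and 78 against 310 and 343. mt-Tf (phenylalanine), the first gene of the genome, had 6 and 39 against 136 and 93, while mt-Rnr1 beside it had 76918 or more in every library. mt-Ts2 (serine, AGY codons) had 63 and 65 against 58 and 218, and mt-Tl2 (leucine, CUN codons), the only member with a log2 fold change below 0 (-0.29 ± 0.80, but 0.018 after rescaling to nuclear protein-coding genes), had 69 and 117 against 58 and 93. The last 2 rest on 3 to 18 reads, and their groups overlapped. mt-Tv, mt-Tk and mt-Tr had at most 3 reads in every library, and no fold is given.

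By strand, the 8 minus-strand tRNA genes had a median log2 fold change of 1.60, and the 6 plus-strand tRNA genes with at least 10 reads in every library 1.38, while all 14 plus-strand tRNA genes, 4 of them tested through luminal values alone, had 1.61. Minus-strand tRNA genes together exceeded plus-strand tRNA genes by ratios of 1.353 and 1.497 in basal 1 and 3 and 1.578 and 1.645 in luminal 3 and 2. mt-Nd6, on the minus strand, exceeded its plus-strand neighbour mt-Nd5 per kb by ratios of 1.24 and 1.22 against 1.33 and 1.42. In both ratios the luminal libraries lay above the basal ones. Whether strand was used in counting is not stated in the sources used here, and without it reads from opposite genes that overlap, such as mt-Nd5 and mt-Nd6, cannot be told apart.

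The makeup of the mitochondrial RNA also differed between the cell types. tRNA genes amounted to 1.81% and 2.07% of mRNA values in basal 1 and 3 and to 2.94% and 3.62% in luminal 3 and 2. Luminal libraries thus had relatively more reads on tRNA genes. Such reads can come from a tRNA or from uncut RNA that holds it, and which of these they were was not tested. The ratio of rRNA to mRNA values was 0.573 and 0.625 against 0.948 and 0.653, and here luminal 2 lay close to basal 3. Of all mitochondrial values, mRNA genes made up 62.8% and 60.8% against 50.6% and 59.2%.

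Within the 7 abundant mRNA genes, the proportions differed by a few percentage points at most. mt-Nd5 made up 16.5% and 16.3% of their sum in basal 1 and 3 and 16.4% and 16.3% in luminal 3 and 2. mt-Nd1 held 13.6% (95% Wilson interval 13.4 to 13.9) and 12.7% (12.4 to 12.9) in basal and 11.2% (11.0 to 11.5) and 11.5% (11.1 to 11.9) in luminal libraries. mt-Nd2 made up 10.1% and 9.71% against 7.96% and 8.93%. mt-Co1 was higher in luminal libraries, 32.1% and 32.9% against 34.4% and 34.1%, as was mt-Nd6, 5.81% and 5.65% against 6.19% and 6.60%. The groups did not overlap for mt-Nd1, mt-Nd2, mt-Co1, mt-Nd4 and mt-Nd6, and overlapped for mt-Nd5 and mt-Cytb. For mt-Nd4, with 8.08% (7.86 to 8.30) and 7.90% (7.72 to 8.09) against 8.20% (7.95 to 8.45) and 8.21% (7.86 to 8.56), the intervals of the groups overlapped, as did that of mt-Nd6 in basal 1 (5.63 to 6.01) with that in luminal 3 (5.97 to 6.42). With 2 libraries per group, no exact test of these differences can pass.

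**Figure D5:**
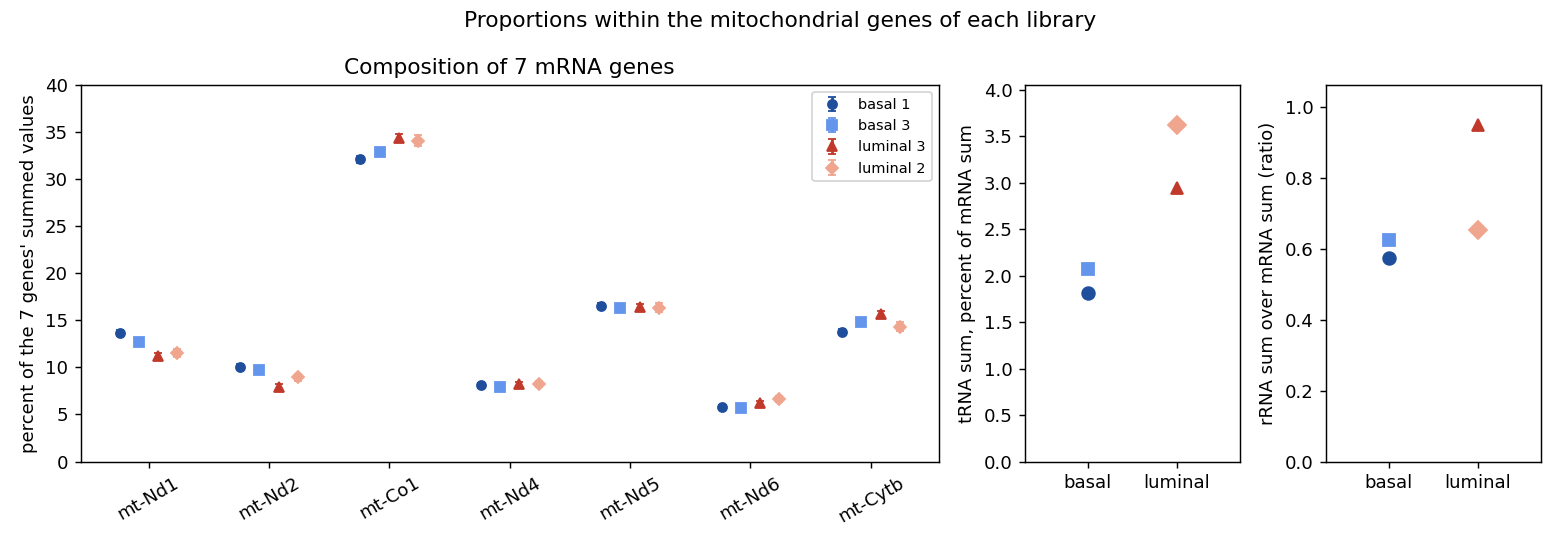
The left panel gives the share of each of the 7 abundant mRNA genes in their sum with 95% Wilson intervals, and the other panels the tRNA sum as a percent of the mRNA sum and the ratio of rRNA to mRNA sums, with 1 symbol per library and axes from 0. The mRNA shares differed by a few percentage points at most, with mt-Nd1 at 13.6% and 12.7% in basal and 11.2% and 11.5% in luminal libraries, and the tRNA percent was 1.81 and 2.07 in basal and 2.94 and 3.62 in luminal libraries.

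Lists of nuclear genes that make, cut, modify and translate mitochondrial RNA, or mark and regulate mitochondria, had median log2 fold changes between -0.26 and 0.42, beside -0.10 for all genes. Over 8 lists with 207 genes tested, limma called 0 at an adjusted p of 0.05, and without adjustment 6 had a p under 0.05 with luminal and 9 with basal cells higher, against 7.82% and 10.7% of all genes. edgeR and DESeq2 each called 2 genes, Esrrg and Qtrt1, with luminal cells higher, against 2.37% and 2.04% of all genes. A ratio of 2 or more was met by 17 and a ratio of 0.5 or below by 10 of the 207, against 18.3% and 16.3% of all genes. Median log2 fold changes were 0.27 for mtDNA transcription and replication (21 genes), -0.16 for RNA processing and stability (30), 0.42 for tRNA modification (16), -0.02 for aminoacyl-tRNA synthetases (21), 0.15 for translation factors (13), 0.06 for mitochondrial ribosomal proteins (78), -0.26 for markers of mitochondrial content (18) and 0.18 for regulators of mitochondrial biogenesis (10). When the libraries were scaled to the same nuclear protein-coding total, the median over all genes was 0.21 in place of -0.10, and all 8 medians were above 0, from 0.05 to 0.72.

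Esrrg, a nuclear receptor that drives genes of oxidative metabolism, had the largest fold of the list genes whose average reached 100, with values of 38 and 214 in basal 1 and 3 and 1317 and 1683 in luminal 3 and 2 (log2 fold change 4.02 ± 0.84, limma adjusted p = 0.0705). Qtrt1, a subunit of the enzyme that places queuine in tRNAs, had 244 and 162 against 910 and 935 (2.21 ± 0.38, limma adjusted p = 0.0688). Their groups did not overlap, and neither passed limma's threshold. Mterf4, which acts in mitochondrial ribosome assembly, had 1315 and 948 against 252 and 592, and Polg2, the accessory subunit of the mitochondrial DNA polymerase, 1641 and 870 against 368 and 686, both with basal cells higher. Yy1, a transcription factor of many mitochondrial genes, had 2436 and 1760 against 1375 and 748. Lars2, the mitochondrial leucyl-tRNA synthetase, stood out with 24606 and 26113 against 56112 and 39171, which made up most of the summed values of its list. Whether reads of other RNAs were counted on Lars2 was not tested. Mrps25, of the small mitochondrial ribosomal subunit, had 1096 and 994 against 426 and 530. Hspd1, a mitochondrial chaperone, had 1979 and 1552 against 1142 and 841. Among the 18 content markers 0 were higher in both luminal libraries and 8 in both basal libraries, against 23.6% and 27.3% of all genes.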

How the data were processed

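RNA was measured in 4 libraries made with the Ovation Solo kit. The submitters' processing notes name STAR, Picard, HTSeq and GRCm38 (mm10). The authors deposited a signal per gene, the HTSeq count scaled to a common number of aligned reads and rounded. Counting mode, use of strand and removal of duplicates are not given in the sources used here. All value columns were mapped to samples, leaving 0 unmapped.

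The value of 1 read was found from the spacing of values of up to 60 reads. Of these, 97.9% to 99.0% lay at whole reads, within a tolerance of at most 0.1 reads that was smaller in luminal libraries. 485 genes lay on another spacing, none a member. The filter kept genes with a minimum of 10 and an average of 20 in at least 1 cell type. The main test was limma 3.58.1 with a trended prior on log2(value + 1), adjusted by Benjamini-Hochberg over 18737 genes, and folds of genes with few reads depend on the pseudocount. Recovered reads were rounded and tested by edgeR 4.0.16 and, separately, DESeq2 1.42.0. Scripts were tested on simulated data. Genes were matched to GENCODE M21 (49412 of 49671), and copies were found by blastn 2.17.0+ against its transcripts. R 4.3.3, Python 3.11.15, numpy 2.4.6, pandas 2.3.3, scipy 1.17.1 and matplotlib 3.10.9 were used. Pseudogenes and repeats not annotated there were not searched.

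All mitochondrial genes may be named, with values in every library for mRNA and rRNA genes and for tRNA genes with 10 or more reads in each. From each nuclear list the rule takes genes with a limma adjusted p under 0.05 or else the 3 with the largest fold change at an average of 100 or more, of which the text gives a part. tRNA genes with fewer reads were added after their values were seen. Members and lists were chosen with earlier results of these data known. Alternatives changed the filter, pseudocount, scaling, model, fold threshold and gene set, and left out each library. The sum of 1 marker list is not reported here.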

Additional observations from a re-analysis of the deposited data

How the results depend on the processing

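The number of genes limma called at an adjusted p of 0.05 depended on the settings. It was 130 as reported, 531 with a pseudocount of 10, 678 with both groups required to pass the filter, 875 after quantile normalization, and 0 with no filter, where 4455 genes had an unadjusted p under 0.05. edgeR called 951 and DESeq2 775, and leaving out 1 library gave 312 to 991. After rescaling to nuclear protein-coding genes, 63 of the calls were luminal higher and 62 basal higher, against 48 and 82 as reported. The direction turned with the library left out: 6 and 587 without basal replicate 1, 80 and 751 without basal replicate 3, 830 and 161 without luminal replicate 3, and 298 and 14 without luminal replicate 2. The median log2 fold change of the mRNA genes was 1.85 for those inside the stretch with chromosome 1 copies alone, and that of the rRNA genes 0.44 after quantile normalization against 1.25 as reported. In the quantile fit mt-Co1 was at 0.00 and mt-Rnr2 at 0.24. For tRNA genes, leaving out 1 library gave medians from 1.45 to 2.00, the highest without basal replicate 3. At a fold threshold of 4, 8 members passed (7.77% of all genes), 4 of them past the filter in both cell types. The ratio of mitochondrial shares ranged from 1.69 to 2.53 when 1 library was left out. mt-Tl2 changed sign, with a log2 fold change of 0.018 after rescaling to nuclear protein-coding genes and -0.66 to 0.089 when 1 library was left out (0.089 without basal replicate 3 and 0.05 without luminal replicate 3), and mt-Ts2 gave -0.14, its lowest, without luminal replicate 2 and 1.75, its highest, without luminal replicate 3. The causes were not tested. The medians of mRNA, rRNA and tRNA genes stayed above 0 under every alternative run. Where 1 library was left out of a group, the lone library was assumed to vary like the others. Depth limits the low tRNA genes and mt-Nd3 and mt-Nd4l, with 6 to 19 reads. No paired analysis was possible because the groups share only 1 replicate number. Leaving out genes on another spacing, tRNA genes with at most 3 reads, and genes inside or outside the copied stretch were alternatives chosen after seeing the data.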
